A study of Mus musculus with 18 samples.

Results

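Prox1, Dsp, Tdo2, Trpc6, Fibcd1, Spink8 and Wfs1 are genes used to mark neurons of the hippocampus, and here their RNA was followed through libraries made from dissected striatum. They were taken by symbol from the count table, 7 of 55421 genes, and every library was read singly because striatal dissections can carry neighbouring tissue. The 7 genes were selected on read counts of these same 18 libraries, known from an earlier analysis, so their levels and differences are given as a description, with no test. Striatal RNA had been sequenced from 18 mice, with 1 library per mouse, in the study of a Huntington's disease model and of CK2α’, the catalytic subunit of protein kinase CK2 that the gene Csnk2a2 encodes. All mice were labelled as C57BL/6 and were 12 to 14 months old, although the study's methods give the CK2α’(±) line a mixed origin of 129/SvEv and C57BL/6J, crossed with the other lines over many generations. The 5 WT mice carried neither alteration, the 5 zQ175 mice carried a knock-in of an expanded CAG repeat in the huntingtin gene on 1 allele, the 3 CK2α’(±) mice had lost 1 Csnk2a2 allele, and the 5 zQ175:CK2α’(±) mice combined both. The Csnk2a2 loss is in the whole animal, and each library holds RNA of every cell type in the piece of tissue taken.

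In the hippocampus, granule cells of the dentate gyrus and pyramidal cells of Ammon's horn (the CA fields) are excitatory neurons that develop from the pallium, the dorsal part of the embryonic forebrain. The striatum develops from the ventral forebrain and consists mainly of inhibitory projection neurons. Prox1, a homeodomain transcription factor that sets granule cell identity, Dsp, which encodes the desmosomal protein desmoplakin, Tdo2, which encodes the tryptophan dioxygenase that opens the kynurenine pathway, and Trpc6, a diacylglycerol-gated cation channel, are used as granule cell markers. Fibcd1, a membrane receptor for acetylated sugars, Spink8, a Kazal-type protease inhibitor, and Wfs1, which encodes the endoplasmic reticulum protein wolframin, are used as markers of CA1 pyramidal cells. Neither set is exclusive to the hippocampus, since Prox1 is also known in interneurons of the caudal ganglionic eminence (CGE) and in the thalamus, and Wfs1 in striatal projection neurons.

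The genes lie on 6 chromosomes of GRCm38, the build the counts were made on. Prox1 (ENSMUSG00000010175) spans chr1:190118035-190170714 on the minus strand, and its exons overlap the antisense gene Prox1os, which had at most 34 counts in a library. Dsp (ENSMUSG00000054889) spans chr13:38151294-38198577 on the plus strand, and its exons overlap Gm10129 on the other strand, which had at most 3 counts. Tdo2 (ENSMUSG00000028011) spans chr3:81957090-81976202 on the minus strand, Trpc6 (ENSMUSG00000031997) chr9:8544142-8680741 on the plus strand, Fibcd1 (ENSMUSG00000026841) chr2:31813290-31846005 on the minus strand, Spink8 (ENSMUSG00000050074) chr9:109812280-109826633 on the plus strand and Wfs1 (ENSMUSG00000039474) chr5:36966104-36989205 on the minus strand. Counts are of reads over the exons of a gene, and no other gene's exons overlapped those of these last 5 genes. RefSeq gave a promoter for 6 of the 7 genes, all but Spink8. The 250 bases before the RefSeq start of 5 of them are shown (GRCm38.p6, 5′ to 3′ on the gene's own strand). They let genes with their highest level in the same library, zQ175 replicate 5, be set beside Wfs1, which was not highest there. Capitals mark the E-box CANNTG, the motif read by basic helix-loop-helix factors such as those of the Neurod family, searched on both strands, which for this palindromic pattern are the same.
Fibcd1 promoter: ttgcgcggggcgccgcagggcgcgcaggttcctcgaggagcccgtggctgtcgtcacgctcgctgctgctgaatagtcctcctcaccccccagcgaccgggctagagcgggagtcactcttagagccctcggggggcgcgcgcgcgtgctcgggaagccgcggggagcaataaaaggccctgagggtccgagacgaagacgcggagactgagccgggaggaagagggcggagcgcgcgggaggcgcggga
Dsp promoter: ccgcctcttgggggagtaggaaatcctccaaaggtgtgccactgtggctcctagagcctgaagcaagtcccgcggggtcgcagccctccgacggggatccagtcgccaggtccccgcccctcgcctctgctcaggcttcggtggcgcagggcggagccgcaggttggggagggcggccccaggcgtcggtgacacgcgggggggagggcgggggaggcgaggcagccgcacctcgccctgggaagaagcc
Tdo2 promoter: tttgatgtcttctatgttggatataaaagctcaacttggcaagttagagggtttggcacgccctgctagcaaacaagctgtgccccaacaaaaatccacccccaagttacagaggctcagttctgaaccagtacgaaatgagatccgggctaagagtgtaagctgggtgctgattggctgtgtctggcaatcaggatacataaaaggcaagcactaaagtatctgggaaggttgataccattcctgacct
Prox1 promoter: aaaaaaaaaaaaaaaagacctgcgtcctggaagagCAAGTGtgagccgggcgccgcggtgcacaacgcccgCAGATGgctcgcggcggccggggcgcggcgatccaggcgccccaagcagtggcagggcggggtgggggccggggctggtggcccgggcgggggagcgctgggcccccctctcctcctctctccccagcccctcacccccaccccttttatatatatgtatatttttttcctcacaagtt
Wfs1 promoter: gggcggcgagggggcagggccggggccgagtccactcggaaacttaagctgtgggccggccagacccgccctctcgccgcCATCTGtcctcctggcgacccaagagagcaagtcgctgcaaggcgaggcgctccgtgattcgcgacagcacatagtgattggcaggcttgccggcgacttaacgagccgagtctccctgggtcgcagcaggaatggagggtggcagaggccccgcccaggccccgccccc
These windows are chr2:31846006-31846255 for Fibcd1, chr13:38151044-38151293 for Dsp, chr3:81975729-81975978 for Tdo2, chr1:190170828-190171077 for Prox1 and chr5:36988983-36989232 for Wfs1. Fibcd1, Dsp and Tdo2 held no E-box in this window, nor did Trpc6, whereas the printed Prox1 window held 2 and Wfs1 held 1. RefSeq gives Prox1 a further start, whose window (chr1:190169516-190169765, not printed) held no E-box and 11 CpG dinucleotides. CANNTG was found in 66.2% of 32851 RefSeq promoters of the same length. The variant CAGATG, itself a form of CANNTG, was found on either strand in 14.4% of them, and it occurred in the Prox1 window and, as CATCTG on the printed strand, in the Wfs1 window. The windows differed more in base composition. Fibcd1 had 34 CpG dinucleotides, Wfs1 23, Dsp 22, the printed Prox1 window 20, Trpc6 12 and Tdo2 3, against a median of 6 over all promoters.

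Library totals ranged from 13612381 to 22702547 counts, and within a genotype any pair of libraries correlated at 0.950 to 0.972 on the log2 CPM scale. CPM here is a gene's count relative to the library total after TMM scaling. Csnk2a2 lay between 14.7 and 19.9 CPM in the 8 mice with 1 allele and between 29.4 and 37.5 CPM in the 10 with both, so the libraries followed their labels for this allele. The zQ175 allele was not checked here. Several libraries differed in genes of neighbouring structures. The summed level of 10 choroid plexus genes was at most 23.3 CPM in 14 libraries and 1015 CPM or more in 4, WT replicates 1 and 3, CK2α’(±) replicate 1 and zQ175:CK2α’(±) replicate 2. The summed level of 10 thalamic genes ran from 88.0 CPM to 1536 CPM in zQ175 replicate 1, and that of 14 genes of striatal projection neurons from 1962 CPM in zQ175 replicate 1 to 7981 CPM in WT replicate 2. All 14 of the latter were at 1 CPM or more in every library, which fits the labelled tissue. A further library, zQ175 replicate 5, stood apart in the hippocampal and pallial genes described here, and the zQ175 means and list medians of the genotype comparisons that follow are also given without it where it bears on them. In such bulk samples, fewer cells of a type and less RNA per cell cannot be told apart.

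Per kilobase of exon, Wfs1 was the most abundant of the 7 genes with a median over the 18 libraries of 20.2 CPM per kb, followed by Prox1 with 6.68, Trpc6 with 1.49, Fibcd1 with 1.08, Dsp with 1.03, Spink8 with 0.782 and Tdo2 with 0.0318 CPM per kb. Trpc6, Fibcd1 and Dsp were close in this order, and each varied more between libraries than these medians differed. In all 18 libraries, 5 of the 7 genes were at 1 CPM or more, so most of them were measured in every mouse. The label of hippocampal neuron markers therefore did not hold for all 7 in this tissue, least of all for Wfs1 and Prox1, and they are called the 7 marker genes from here on. The low-count filter of the genotype comparisons kept 6 of them and left out Tdo2.

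Prox1 was measured in every mouse. WT mice had Prox1 at 46.8, 45.2, 58.8, 57.7 and 54.5 CPM in replicates 1 to 5. The zQ175 libraries had Prox1 at 90.8, 46.4, 53.4, 61.9 and 93.3 CPM. Replicates 1 and 5 of zQ175 were high while the other 3 lay in or just above the WT range, so the genotypes overlapped. In CK2α’(±) mice Prox1 was at 62.4, 68.6 and 26.1 CPM, the last being the lowest of all libraries. In zQ175:CK2α’(±) mice it was at 45.3, 48.3, 60.01, 38.7 and 79.1 CPM, with replicate 5 the highest. The group means were 69.2 ± 21.6 (SD, n = 5) CPM in zQ175, 54.3 ± 15.9 (SD, n = 5) in zQ175:CK2α’(±), 52.6 ± 6.24 (SD, n = 5) in WT and 52.4 ± 22.97 (SD, n = 3) in CK2α’(±) mice. No neighbours in that order differed by more than their spread, and without replicate 5 the zQ175 mean was 63.1 ± 19.5 (SD, n = 4) CPM.

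Dsp, the desmoplakin gene, was lower in level and more uneven. WT mice had Dsp at 7.38, 2.63, 15.1, 12.3 and 11.2 CPM in replicates 1 to 5. The zQ175 libraries had Dsp at 18.2, 13.8, 5.78, 11.3 and 33.6 CPM. The last value, replicate 5, was well above every other library, and the remaining zQ175 values overlapped those of WT. In CK2α’(±) mice Dsp was at 6.97, 8.01 and 5.21 CPM, and in zQ175:CK2α’(±) mice at 4.28, 13.3, 4.59, 14.7 and 8.71 CPM. The means were 16.5 ± 10.5 (SD, n = 5) CPM in zQ175, 9.71 ± 4.83 (SD, n = 5) in WT, 9.11 ± 4.81 (SD, n = 5) in zQ175:CK2α’(±) and 6.73 ± 1.42 (SD, n = 3) in CK2α’(±) mice. Neighbours in this order did not differ beyond their spread either, and without replicate 5 the zQ175 mean was 12.3 ± 5.19 (SD, n = 4) CPM.

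Tdo2 was nearly absent. WT mice had 2, 0, 5, 7 and 5 counts of Tdo2, and zQ175 mice had 4, 2, 0, 1 and 23. The CK2α’(±) libraries had 2, 3 and 1, and the zQ175:CK2α’(±) libraries 0, 13, 3, 2 and 4. Replicate 5 of zQ175 and replicate 2 of zQ175:CK2α’(±) were the only libraries with more than 7 counts. Scaled to library size they were at 1.24 CPM (95% exact Poisson interval 0.784 to 1.86) and 0.933 CPM (0.497 to 1.6), so their counting intervals overlapped. A count of 0, found in 3 libraries, leaves room for up to 3 counts, and intervals cover counting error only. The second of these libraries was the one with the highest choroid plexus signal, and the part of that signal in its Tdo2 count was not tested.

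Trpc6, the cation channel gene, showed another order of the genotypes. WT mice had Trpc6 at 9.62, 14.7, 6.67, 6.80 and 5.93 CPM in replicates 1 to 5. The zQ175 libraries had Trpc6 at 4.22, 9.91, 9.04, 8.11 and 16.9 CPM. Replicate 5 was again the highest and replicate 1 nearly the lowest of the series, so that the zQ175 range enclosed the WT range. In CK2α’(±) mice Trpc6 was at 9.34, 9.19 and 12.0 CPM. In zQ175:CK2α’(±) mice it was at 6.14, 5.67, 6.98, 4.19 and 5.71 CPM, which overlapped the WT and the zQ175 ranges. The means were 10.2 ± 1.59 (SD, n = 3) CPM in CK2α’(±), 9.64 ± 4.62 (SD, n = 5) in zQ175, 8.75 ± 3.63 (SD, n = 5) in WT and 5.74 ± 1.01 (SD, n = 5) in zQ175:CK2α’(±) mice, and neighbours in this order overlapped. Without replicate 5 the zQ175 mean was 7.82 ± 2.51 (SD, n = 4) CPM, below that of WT, so the order of these groups turned.

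Fibcd1, the first of the CA1 markers, was far higher in a single library than in the others. WT mice had Fibcd1 at 5.28, 9.22, 5.72, 3.91 and 4.26 CPM in replicates 1 to 5. The zQ175 libraries had Fibcd1 at 3.98, 5.68, 4.18, 2.70 and 19.9 CPM. Replicate 5 of zQ175 was 2.16 times the next highest library, WT replicate 2, and their counting intervals were apart (17.9 to 22.03 CPM against 7.86 to 10.7 CPM). In CK2α’(±) mice Fibcd1 was at 3.38, 4.94 and 8.48 CPM, and in zQ175:CK2α’(±) mice at 5.57, 3.09, 5.02, 5.63 and 5.53 CPM. The zQ175 mean of 7.29 ± 7.13 (SD, n = 5) CPM was the highest of the 4 groups, and without replicate 5 it was the lowest, 4.14 ± 1.22 (SD, n = 4) CPM. The WT mean was 5.68 ± 2.11 (SD, n = 5), the CK2α’(±) mean 5.60 ± 2.61 (SD, n = 3) and the zQ175:CK2α’(±) mean 4.97 ± 1.08 (SD, n = 5) CPM, which overlapped.

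Spink8, the protease inhibitor gene, had few counts, 57 in zQ175 replicate 5 and at most 22 elsewhere. WT mice had Spink8 at 0.648, 0.279, 0.340, 0.400 and 0.741 CPM in replicates 1 to 5. The zQ175 libraries had Spink8 at 0.141, 1.28, 0.738, 0.725 and 3.07 CPM. Replicate 5 of zQ175 was 2.40 times the next highest library, replicate 2 of the same genotype, and replicate 1 was lower than every WT library. In CK2α’(±) mice Spink8 was at 0.151, 0.0437 and 0.934 CPM, and in zQ175:CK2α’(±) mice at 0.169, 0.790, 0.857, 0.637 and 0.120 CPM. The means were 1.19 ± 1.12 (SD, n = 5) CPM in zQ175, 0.515 ± 0.348 (SD, n = 5) in zQ175:CK2α’(±), 0.482 ± 0.202 (SD, n = 5) in WT and 0.376 ± 0.486 (SD, n = 3) in CK2α’(±) mice, and no neighbours differed beyond their spread. Without replicate 5 the zQ175 mean was 0.720 ± 0.463 (SD, n = 4) CPM.

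Wfs1, the wolframin gene, went the other way. WT mice had Wfs1 at 123, 100.4, 90.7, 70.5 and 109 CPM in replicates 1 to 5. The zQ175 libraries had Wfs1 at 47.5, 77.1, 84.8, 68.7 and 56.5 CPM. Here zQ175 replicate 1 was the lowest library of all and zQ175 replicate 5 the next lowest, and the zQ175 and WT ranges overlapped only between WT replicate 4 and the upper zQ175 values. In CK2α’(±) mice Wfs1 was at 96.8, 73.3 and 118.3 CPM, within the WT range. In zQ175:CK2α’(±) mice it was at 88.6, 69.1, 68.3, 75.6 and 65.8 CPM, which overlapped the zQ175 and the WT values, with 3 libraries below every WT library and 1 above every zQ175 library. The means were 98.7 ± 19.7 (SD, n = 5) CPM in WT, 96.2 ± 22.5 (SD, n = 3) in CK2α’(±), 73.5 ± 9.19 (SD, n = 5) in zQ175:CK2α’(±) and 66.9 ± 15.1 (SD, n = 5) in zQ175 mice, or 69.5 ± 16.1 (SD, n = 4) without replicate 5. The step between CK2α’(±) and zQ175:CK2α’(±) mice was about as large as the SD of the former, and the other neighbours were closer than that.

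**Figure D1:**
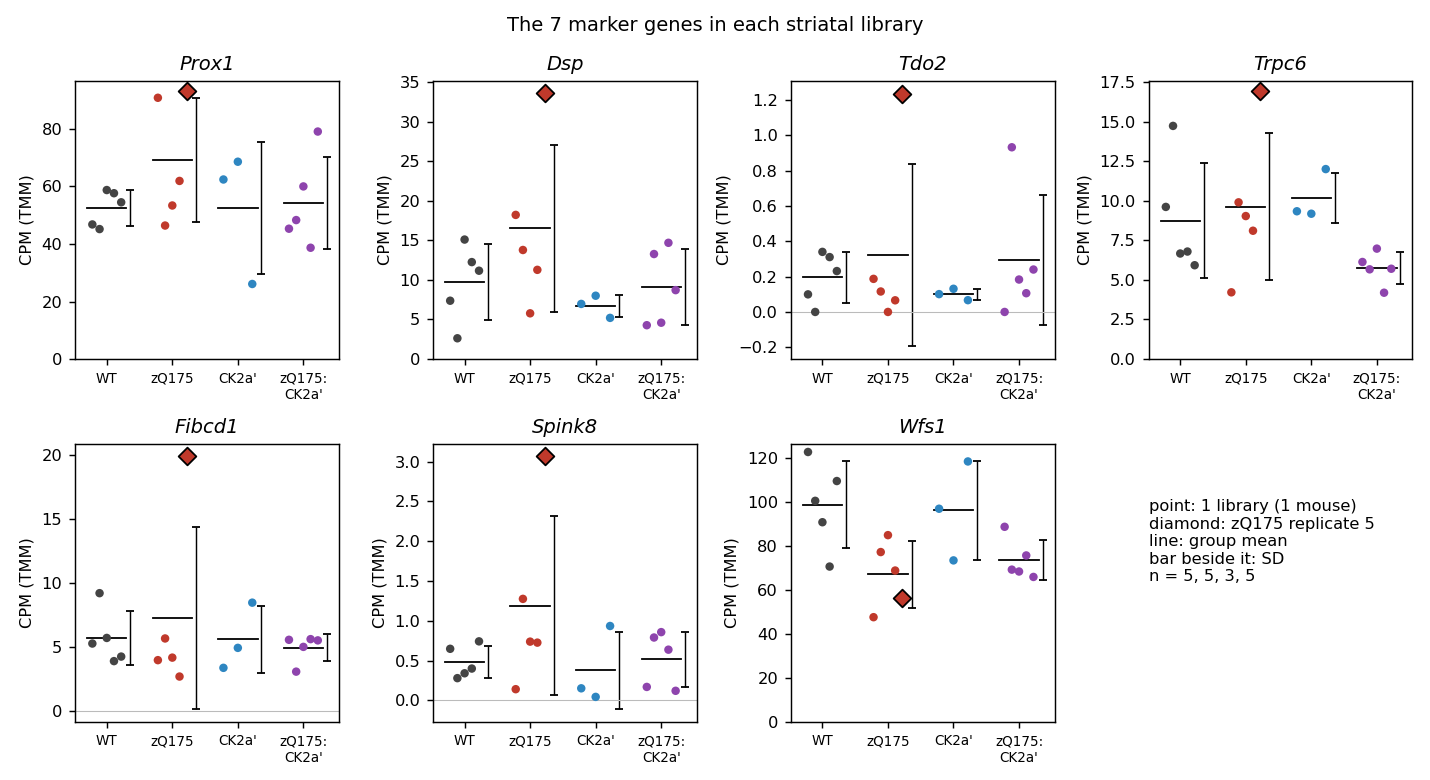
Level in CPM after TMM scaling (vertical axes, linear, a different range in each panel) of the 7 marker genes in each of 18 libraries, by genotype, with the group mean as a line and the SD as a bar beside it (n = 5 WT, 5 zQ175, 3 CK2a'(+/-) and 5 zQ175:CK2a'(+/-)). The diamond, zQ175 replicate 5, is the highest point in every panel but that of Wfs1, where it is at 56.5 CPM and zQ175 replicate 1 at 47.5 CPM.

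Read by library, 6 of the 7 marker genes had their highest level of all 18 libraries in zQ175 replicate 5. Over the 20914 genes tested, 7.76% had their highest level in this library, but the 7 were picked with this known, so the share supports nothing by itself. The excess ran from small to large. Prox1 there was 1.71 times the median of the other 17 libraries and its counting interval of 88.95 to 97.8 CPM overlapped that of the next library, zQ175 replicate 1 (86.8 to 94.96 CPM). Trpc6 was 2.43 times that median, Dsp 3.86 times, Fibcd1 3.96 times, Spink8 4.81 times and Tdo2 10.7 times, the last from 23 counts and against a median of 0.116 CPM. For Trpc6, at 16.9 CPM, the counting interval overlapped that of the next library, WT replicate 2 at 14.7 CPM. Fibcd1 and Spink8, 2 of the 7, were at least 2 times the next highest library, which held for 0.325% of all genes tested. Wfs1 was 0.732 times the median of the other libraries. Averaged as z-scores over the 7 genes, zQ175 replicate 5 was at 1.71 and the other 17 libraries lay between -0.613 in zQ175:CK2α’(±) replicate 1 and 0.238 in WT replicate 3.

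The fits of zQ175 against WT, with all 18 libraries in 1 edgeR model, show what that library contributes to the group differences. The log2 fold change (zQ175 minus WT) was 0.77 ± 0.42 (SE) for Dsp and 0.34 ± 0.41 without zQ175 replicate 5. For Spink8 it was 1.28 ± 0.73 and 0.55 ± 0.75 without this library, and for Prox1 0.40 ± 0.23 and 0.26 ± 0.24. Each of these 3 kept its sign and became smaller. Trpc6 went from 0.14 ± 0.28 to -0.17 ± 0.26 and Fibcd1 from 0.37 ± 0.41 to -0.45 ± 0.29, so both turned in direction. Wfs1 was -0.56 ± 0.16 with and -0.51 ± 0.17 without the library, and -0.36 ± 0.15 when zQ175 replicate 1 was left out as well. In that last fit, chosen after the values were seen, Prox1 was at 0.04 ± 0.24 and Dsp at 0.08 ± 0.43, close to no difference, whereas Spink8 was at 0.91 ± 0.75 with few counts. Trpc6 was at 0.05 ± 0.25 in that fit, so its turn in direction did not hold, and Fibcd1 was at -0.43 ± 0.33.

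Against zQ175:CK2α’(±) mice, a comparison that shares the zQ175 libraries with the former, the log2 fold changes (zQ175 minus zQ175:CK2α’(±)) were 1.21 ± 0.74 (SE) for Spink8, 0.86 ± 0.43 for Dsp, 0.75 ± 0.29 for Trpc6, 0.55 ± 0.41 for Fibcd1, 0.35 ± 0.23 for Prox1 and -0.14 ± 0.16 for Wfs1. Without zQ175 replicate 5 they were 0.48, 0.43, 0.44, -0.27, 0.21 and -0.08. All but Fibcd1 kept their sign. The zQ175:CK2α’(±) libraries themselves were low in Trpc6, with a log2 fold change of -0.61 ± 0.29 against WT and 0.65 ± 0.25 for zQ175 minus zQ175:CK2α’(±) without zQ175 replicates 1 and 5. They were also low in Wfs1, at -0.43 ± 0.16 against WT, whereas CK2α’(±) mice were at -0.04 ± 0.18. The remaining values against WT were within 1 SE of no difference in zQ175:CK2α’(±) mice, and in CK2α’(±) mice all were except Dsp, at -0.52 ± 0.51.

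**Figure D2:**
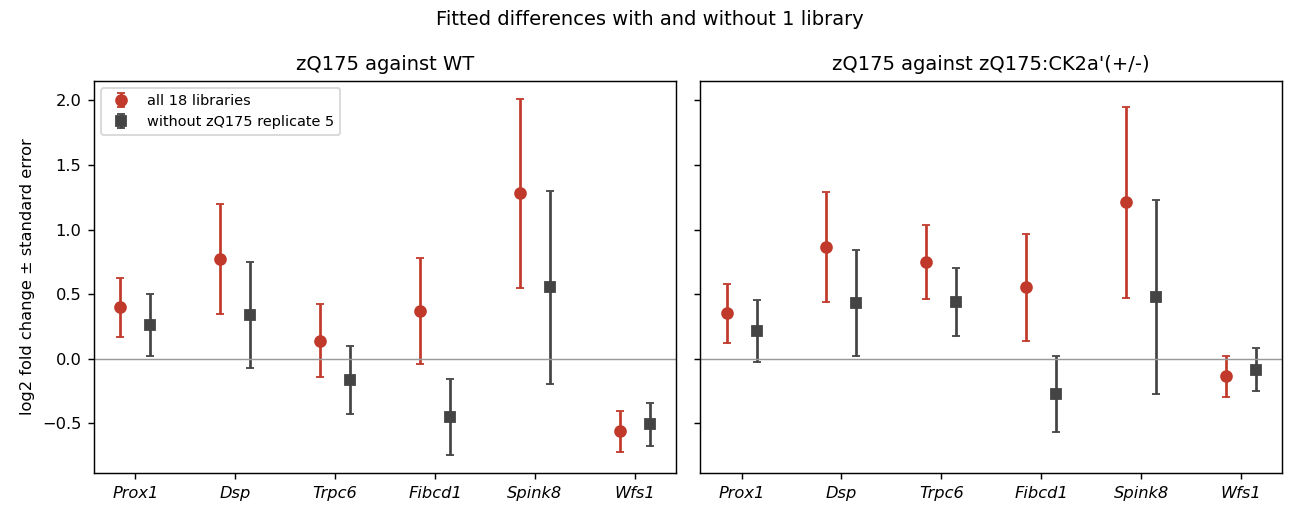
Fitted log2 fold change (vertical axis, point ± standard error) of the 6 marker genes that passed the low-count filter, for zQ175 against WT (left) and zQ175 against zQ175:CK2a'(+/-) (right), with all 18 libraries (circles) and without zQ175 replicate 5 (squares). Fibcd1 moves from 0.37 to -0.45 on the left and from 0.55 to -0.27 on the right, and Wfs1 moves least.

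The 7 marker genes did not vary as a unit. Over 18 libraries, 13 of their 21 pairs had a positive correlation of log2 CPM, with a median Pearson r of 0.10, and without zQ175 replicate 5 the count was 10 and the median -0.01. Leaving Wfs1 aside, the median of 15 pairs went from 0.36 to -0.01 when that library was removed. These correlations are descriptions, since the points share libraries, depth and the dissections behind them. Dsp and Tdo2 were the closest pair, with r = 0.75 (Spearman's rho 0.70) and r = 0.64 without zQ175 replicate 5. Trpc6 and Fibcd1 followed with r = 0.61 (rho 0.42) and r = 0.42 without it. Dsp and Trpc6, both granule cell markers, went from r = -0.21 to r = -0.65, so outside that library the one was low where the other was high. Prox1 and Wfs1 ran against each other, r = -0.71 (rho -0.66) over all libraries and r = -0.66 without zQ175 replicate 5 or without the 2 libraries farthest from the median of Wfs1.

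Several marker genes varied with genes that mark other regions or striatal neurons, and Prox1 and Wfs1 are described most fully here. Trpc6 had r = 0.53 and Dsp r = -0.575 with the 14 striatal projection genes, and Spink8 had r = -0.68 with the 10 neocortical layer genes. Prox1 had r = 0.67 (rho 0.72) with the summed level of the 10 thalamic genes, and r = 0.88 without zQ175 replicate 5, which had high Prox1 with 124 CPM of thalamic genes. In zQ175 replicate 1 the other high Prox1 value went with 1536 CPM of thalamic genes, and without the 2 libraries farthest from the thalamic median r was 0.54. With the 10 neocortical layer genes Prox1 had r = 0.55 (rho 0.57) and r = 0.87 without zQ175 replicate 5. Its r was -0.04 with the summed dentate gyrus genes listed below and 0.06 with the summed CGE interneuron genes. Wfs1 had r = 0.75 (rho 0.69) with the 14 striatal projection genes, r = 0.75 without zQ175 replicate 5 and r = 0.64 without the 2 libraries farthest from the median. The striatal sums ranged from 1962 to 3946 CPM in zQ175, from 3273 to 4578 CPM in zQ175:CK2α’(±), from 3482 to 7981 CPM in WT and from 5682 to 7768 CPM in CK2α’(±) mice. Their part in the Wfs1 levels was not tested.

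**Figure D3:**
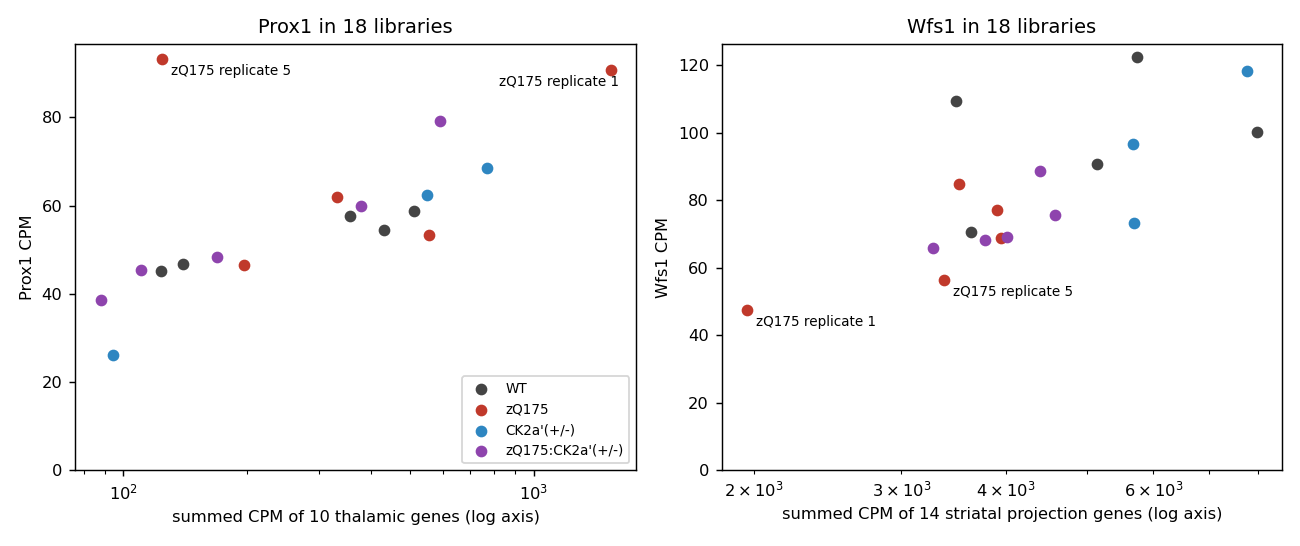
Prox1 level in CPM against the summed CPM of 10 thalamic genes (left) and Wfs1 level against the summed CPM of 14 striatal projection genes (right), with 1 point per library, coloured by genotype, and log horizontal axes. The 2 highest Prox1 points are zQ175 replicate 5 at 124 CPM of thalamic genes and zQ175 replicate 1 at 1536 CPM, and the lowest Wfs1 point, zQ175 replicate 1, is also the lowest in striatal genes at 1962 CPM.

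Lists of other genes known from these regions, which the choice of the 7 did not use, were read in the same way. These lists were drawn up with earlier results of these data known. Of 9 dentate gyrus genes, 7 were highest in zQ175 replicate 5, against 7.76% of all genes tested, and 2 were there at least 2 times the next library. C1ql2, which encodes a secreted protein of mossy fibre synapses, was at 10.3 CPM in zQ175 replicate 5, 2.53 CPM in zQ175 replicate 1 and had a median of 0.801 CPM over the 17 others. Lct, the lactase gene, had 178 counts (9.57 CPM) in zQ175 replicate 5 and at most 3 counts in any other library. Because a single library held nearly all Lct counts, the filter left it out of the tests. Npnt, encoding the matrix protein nephronectin, was at 10.6 CPM there with a median of 3.41 elsewhere, and Glis3, a zinc finger factor gene, at 12.7 CPM with a median of 6.07.

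The other dentate gyrus genes lay nearer to their medians in zQ175 replicate 5. The Notch coactivator gene Maml2 was at 27.6 CPM in zQ175 replicate 5 with a median of 18.6 elsewhere, Dgkh, a diacylglycerol kinase gene, at 264 CPM with 225, and Dock10, a guanine nucleotide exchange factor gene, at 176 CPM with 159. The next highest library was at 257 CPM for Dgkh (zQ175 replicate 2) and at 169 CPM for Dock10 (CK2α’(±) replicate 1). Dgkh and Dock10 were thus highest in zQ175 replicate 5 by a small margin. Stxbp6, which encodes a SNARE-binding protein, was highest in zQ175 replicate 1 at 55.6 CPM and the next highest in zQ175 replicate 5 at 44.4 CPM. Plk5, a polo-like kinase gene, was highest in CK2α’(±) replicate 3 at 15.7 CPM and at 7.90 CPM in zQ175 replicate 5, near the median. The 2 genes with a median under 1 CPM, C1ql2 and Lct, were those at least 2 times the next library, and the other 7 were at 1 CPM or more in every library.

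Of 12 Ammon's horn genes, 3 were highest in zQ175 replicate 5, 5 in zQ175 replicate 1 (10.7% of all genes tested were highest there), and none was 2 times the next library in replicate 5. Grik4, a kainate receptor subunit gene, was at 27.3 CPM in replicate 5 with a median of 11.8 elsewhere, Ccn3, encoding a matricellular protein, at 5.92 CPM with 1.86, and Mpped1, a metallophosphoesterase gene, at 33.7 CPM with 19.5. Those highest in replicate 1, the library with the largest thalamic sum, were the copine gene Cpne4 (37.4 CPM, and 34.3 CPM in replicate 5), Cacng5 of AMPA receptor auxiliary subunits (23.01 and 8.39 CPM), Bok of the BCL2 family (22.8 and 11.6 CPM), the adhesion gene Amigo2 (14.4 and 8.17 CPM) and the deiodinase gene Iyd (2.53 and 1.94 CPM). In the 17 libraries other than zQ175 replicate 1, Bok was at most 14.6 CPM and Cacng5 at most 13.0 CPM. Pou3f1 and Rgs14, a POU factor and a regulator of G protein signalling of CA2 neurons, were highest in WT replicate 2 (41.6 and 38.4 CPM). The kinase gene Map3k15 was highest in zQ175:CK2α’(±) replicate 2 at 5.31 CPM, and the TGF-β family gene Lefty1 was at most 0.598 CPM, in WT replicate 1. The single-gene maxima of the Ammon's horn list were thus spread over 5 libraries, while its summed level was highest in zQ175 replicate 5 at 187 CPM, followed by 159 CPM in replicate 1. The list median of each gene's log2 CPM minus its median over libraries had the other order, 0.65 in replicate 5 and 0.70 in replicate 1. Of these genes, 8 of 12 were at 1 CPM or more in all libraries.

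Genes shared by excitatory neurons of pallial origin set zQ175 replicate 5 apart more than the other lists did. All 10 of this list were highest there, and 6 of the 10 were at least 2 times the next library. Their summed level was 521 CPM in zQ175 replicate 5 and between 81.3 and 150.0 CPM in the other 17 libraries. Those named here were singled out after their values were seen, apart from Tbr1. Neurod6, a basic helix-loop-helix factor gene, was at 45.7 CPM against at most 4.97 CPM elsewhere, Bhlhe22 of the same factor class at 20.5 against 3.05, the synaptic zinc transporter gene Slc30a3 at 10.4 against 1.53, Neurod2 at 42.5 against 12.9, and Slc17a7, the vesicular glutamate transporter gene of pallial neurons, at 202 against 66.8. Tbr1, a T-box factor gene, was at 17.3 CPM there and at 9.23 to 11.8 CPM in zQ175 replicates 2, 3 and 4. Neurod1, whose protein acts in granule cell formation, was at 8.28 CPM against at most 2.95. In contrast, of 10 genes that mark neocortical layers only Fezf2, a deep layer factor gene, was highest in this library, at 6.94 CPM against at most 3.30 (also singled out after its value was seen), and the summed neocortical level of 136 CPM was the lowest of all 18 libraries.

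Most lists for other cell types and neighbours held few genes that were highest in zQ175 replicate 5. None of the 14 striatal, 10 thalamic or 10 choroid plexus genes was highest there, and 1 of 10 meningeal genes was. Its summed choroid plexus level was 22.6 CPM, within the range of 12.8 to 23.3 CPM of the 14 libraries with little choroid plexus RNA, its meningeal level was 18.3 CPM in a series range of 16.7 to 39.7 CPM, and its thalamic level of 124 CPM was low. Of 6 genes of CGE interneurons, in which Prox1 is also known, Vip and Cck were highest there at 2.04 and 49.0 CPM, 1 of the 6 being at least 2 times the next library, while the other 4 ranked between 8 and 13 of 18. All 10 thalamic genes were highest in zQ175 replicate 1, and all 10 choroid plexus genes in zQ175:CK2α’(±) replicate 2, which held the highest level of 6.52% of all genes tested. In zQ175 replicate 5, 6 of the 7 marker genes, 7 of the 9 dentate gyrus genes and the 10 pallial genes were thus at their highest together. Most Ammon's horn genes were highest in other libraries, Wfs1 and Plk5 were not high in replicate 5, and its neocortical sum was the lowest.

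**Figure D4:**
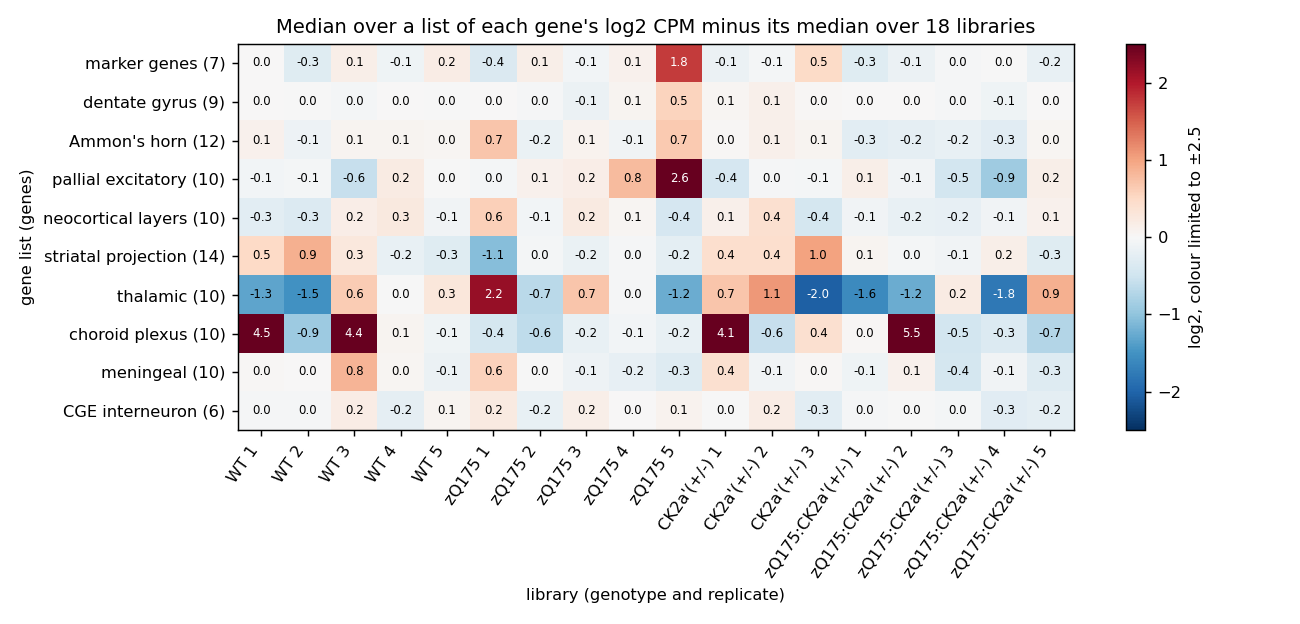
Each cell is the median over a gene list (rows, number of genes in parentheses) of log2 CPM minus the gene's median over the 18 libraries (columns), as colour limited to 2.5 and as printed value. The zQ175 replicate 5 column shows the highest medians of the marker gene row (1.8) and the pallial excitatory row (2.6), the zQ175 replicate 1 column that of the thalamic row (2.2).

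**Figure D5:**
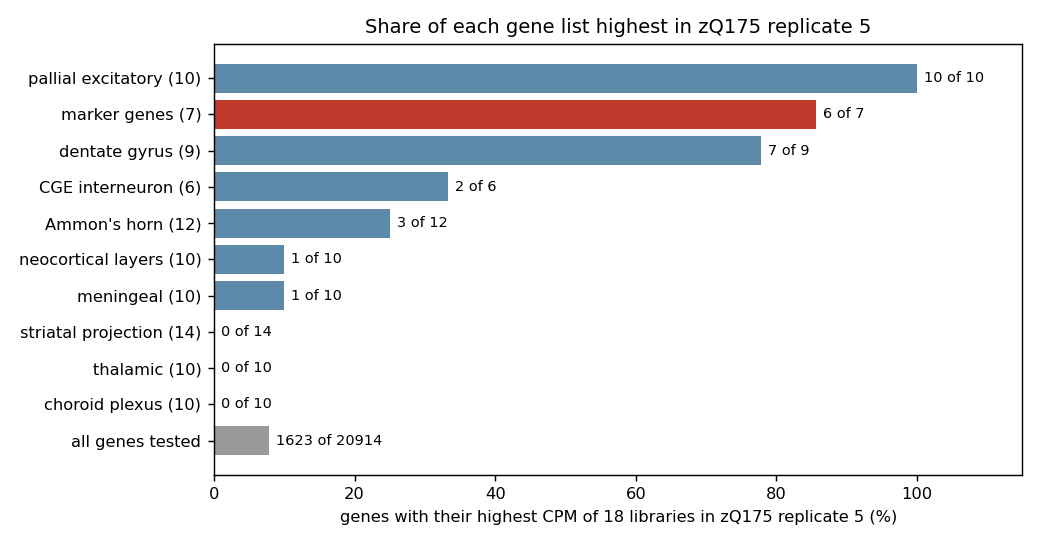
Share of the genes of each list (bars, in percent, from 0) that had their highest level of 18 libraries in zQ175 replicate 5, with counts at the bar ends and all 20914 genes tested as the grey bar. The pallial list has 10 of 10, the 7 marker genes 6 and the dentate gyrus list 7 of 9, against 7.76% of all genes. Every other list, Ammon's horn included, has a smaller share than these lists.

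In the genotype tests, the number of list genes that passed depended on the tool and on the filter. At an adjusted p under 0.1, edgeR called 230 genes in zQ175 against WT mice, 1.1% of those tested, with 0.387% higher and 0.712% lower. Of the 8 dentate gyrus genes tested, C1ql2 was higher in zQ175 (log2 fold change 2.97 ± 0.66 SE, edgeR adjusted p = 0.0588), with means of 3.12 ± 4.10 (SD, n = 5) CPM in zQ175 and 0.389 ± 0.234 (SD, n = 5) CPM in WT. Without zQ175 replicate 5 its zQ175 mean was 1.32 ± 0.856 (SD, n = 4) CPM and the call was lost. Of the 11 Ammon's horn genes tested, Cpne4 was higher (0.78 ± 0.19, edgeR adjusted p = 0.0740), and of 9 pallial genes, Tbr1 (1.27 ± 0.32, edgeR adjusted p = 0.0902). C1ql2 had its high values in zQ175 replicates 5 and 1, Cpne4 in replicates 1 and 5, and Tbr1 in replicates 2 to 5. The median log2 fold change was 0.20 over the dentate gyrus list, 0.24 over the Ammon's horn list and 1.63 over the pallial list, beside 0.00 over all genes tested. Without zQ175 replicate 5 these medians were 0.11, 0.08 and 0.93, and none of the genes passed, since edgeR then called 0 genes in the whole table (2566 had an unadjusted p under 0.05). The zQ175 mean of Cpne4 went from 27.03 ± 8.51 (SD, n = 5) to 25.2 ± 8.64 (SD, n = 4) CPM, beside 15.8 ± 1.80 (SD, n = 5) in WT, and that of Tbr1 from 10.6 ± 4.91 to 8.88 ± 3.67 CPM, beside 4.38 ± 1.51 in WT, so both stayed above the WT mean. Without zQ175 replicates 1 and 5 the 3 list medians were 0.05, -0.175 and 0.81, so the Ammon's horn median changed sign. DESeq2, which called 5.26% of all genes with an adjusted p, called 2 dentate gyrus genes higher and 1 lower, 1 Ammon's horn gene and 3 pallial genes higher. In edgeR with no filter on low counts, where 1.2% of all genes passed, 2 dentate gyrus genes were higher and 1 lower, 1 Ammon's horn gene was higher and 1 lower, and 6 pallial genes were higher. With only the 2 groups in the edgeR fit, 0 genes of the 3 lists passed, and 3, 3 and 8 had an unadjusted p under 0.05, as had 12.6% of all genes. In the edgeR fit of all 18 libraries, 8 of 9 pallial genes had an unadjusted p under 0.05 (13.9% of all genes). Without zQ175 replicate 5 there were 2 of 9, beside 2566 of 20814 genes tested.

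Of 14 striatal projection genes tested, 3 passed as lower in zQ175, the direction in which Wfs1 lay. The list's median difference was -0.64 on the log2 scale. They were Adora2a, the adenosine receptor gene of indirect pathway neurons (-1.12 ± 0.25 SE, edgeR adjusted p = 0.0557), the enkephalin gene Penk (-1.0 ± 0.23, adjusted p = 0.0610) and Ppp1r1b, which encodes DARPP-32 (-0.85 ± 0.21, adjusted p = 0.0765). The list median was -0.64 without zQ175 replicate 5 as well and -0.44 without replicates 1 and 5, though no single gene passed in either. DESeq2 called 4 of the list lower, edgeR with no filter 8, and edgeR with only the 2 groups 0 (9 at an unadjusted p under 0.05), to be read against the shares of 5.26%, 1.2% and 12.6% of all genes. None of the 10 neocortical, 10 thalamic, 10 choroid plexus, 10 meningeal or 6 CGE genes passed in edgeR, with medians of 0.32, 0.90, -3.44, -0.01 and 0.26, and 1, 1, 6, 0 and 1 of them had an unadjusted p under 0.05, beside 13.9% of all genes. Without zQ175 replicate 5 these medians were 0.37, 1.14, -3.98, -0.08 and 0.03, and without replicates 1 and 5 they were 0.08, 0.21, -3.70, -0.38 and 0.115. DESeq2 called 3 choroid plexus genes lower and no gene of the other 4 lists, and edgeR with no filter called 5 choroid plexus genes lower and 1 CGE gene higher. The largest differences in these lists were those of the choroid plexus genes Ttr (-7.24 ± 2.32) and Slc4a5 (-6.25 ± 2.19), the thalamic genes Lhx9 (2.31 ± 1.13) and Gbx2 (1.78 ± 0.69), the neocortical genes Rspo1 (-1.25 ± 0.50) and Ccn2 (0.70 ± 0.34), the CGE genes Cck (1.05 ± 0.41) and Vip (0.86 ± 0.86) and the meningeal genes Igf2 (-0.69 ± 0.61) and Dcn (-0.36 ± 0.33). On the WT side the choroid plexus sum was 2131 and 1782 CPM in replicates 1 and 3, and the other 3 WT libraries, at 15.5 to 23.3 CPM, lay in about the range of zQ175. Without zQ175 replicate 5 the zQ175 mean of Cck was 28.2 ± 15.6 (SD, n = 4) CPM beside 15.7 ± 6.41 (SD, n = 5) in WT, and that of Vip 0.368 ± 0.277 beside 0.384 ± 0.290 CPM.

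In zQ175 against zQ175:CK2α’(±) mice edgeR called 3 genes, 0.0143% of those tested, and no gene of any list was among them. The median log2 fold change was 2.21 over the pallial list, with 8 of 9 genes at an unadjusted p under 0.05 (6.27% of all genes), 0.44 over the Ammon's horn list and 0.10 over the dentate gyrus list. Without zQ175 replicate 5 these medians were 1.07, with 4 of 9 genes at an unadjusted p under 0.05 (5.95% of all genes), 0.38 and 0.02, and without zQ175 replicates 1 and 5 they were 1.01, 0.116 and -0.05, the last with its sign turned. Lists of other tissues moved as well in this comparison. The thalamic median was 1.09, with 3 of 10 genes at an unadjusted p under 0.05, 1.33 without zQ175 replicate 5 and 0.42 without replicates 1 and 5, and the choroid plexus median was -3.31, with 6 of 10. The choroid plexus sum was 3201 CPM in zQ175:CK2α’(±) replicate 2, and the other 4 libraries of that group, at 12.8 to 19.1 CPM, lay close to the zQ175 libraries, at 14.3 to 22.8 CPM. The part of such tissue in the pallial difference was not tested. DESeq2 called 3 pallial genes and 1 Ammon's horn gene higher and 1 choroid plexus gene lower in that comparison (0.145% of all genes), and edgeR with no filter called 4 pallial genes and 1 each of the dentate gyrus, Ammon's horn and CGE genes higher and 3 choroid plexus genes lower (0.136% of all genes). In zQ175:CK2α’(±) and in CK2α’(±) mice against WT, 3 genes were called in each, again 0.0143% of those tested, none of them in a list, and the medians of the dentate gyrus, Ammon's horn and pallial lists lay between -0.17 and 0.14. In the former, DESeq2 called 1 Ammon's horn gene lower (0.725% of all genes), and edgeR with no filter 1 Ammon's horn and 2 striatal genes lower (0.226% of all genes). The difference between these comparisons was not tested.

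The genes whose level followed the mean z-score of the 7 marker genes most closely over the 18 libraries were Rapgefl1 (Pearson r = 0.87), Il16 (0.84), Slit1 (0.82), Slc4a7 (0.80), Rras2 (0.77), Golm1 (0.77), Ccbe1 (0.76), 1110002E22Rik (0.76), Dgkg (0.75) and Trub1 (0.74). Slit1, which encodes a secreted guidance protein, was at 99.96 CPM in zQ175 replicate 5 and at most 31.3 CPM in any other library. Il16 was there at 16.1 CPM against at most 3.53 CPM, and Rapgefl1 at 81.7 CPM against at most 39.4 CPM. Each of these 10 had its highest level in that library, and without it their r with the score lay between -0.09 for Dgkg and 0.56 for Trub1. The 10 closest genes over the remaining 17 libraries were Id2 (r = 0.81), Grpel1, Spout1, Ndufb7, Gm36101, Snord65, Bola3, Naa38, Ndufb11 and Rny3 (0.77), and 0 of the 10 were shared between both sets. The order of likeness over all libraries thus rested on zQ175 replicate 5.

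Taken singly, the marker genes had different closest genes. Prox1 was most like Sema5a, a semaphorin gene, with r = 0.92 and 0.90 without zQ175 replicate 5. Trpc6 was most like the calcium channel gene Cacna1e with r = 0.86 and 0.84 without that library, and Wfs1 like Ephx2, an epoxide hydrolase gene, with r = 0.88 and 0.90. Dsp was most like Smyd2 (r = 0.84, and 0.78 without it), Spink8 like Arpc5 (0.84 and 0.77) and Tdo2 like Pip5k1b (0.79 and 0.67). Fibcd1 was most like the ryanodine receptor gene Ryr2, and its r of 0.84 went to 0.63 without zQ175 replicate 5. No gene was the closest to more than 1 of the 7. Another gene was closest to each of the 7 once zQ175 replicate 5 was left out, such as Gm48261 for Prox1 (r = 0.95), Cyld for Trpc6 (0.87) and Erf for Wfs1 (0.91).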

How the data were processed

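Striatal RNA of 18 mice (1 library per mouse, no pooling) was sequenced from libraries of a stranded total RNA kit. The authors trimmed the reads (Trimmomatic), aligned them with HISAT2 2.1.0 to GRCm38, discarded duplicated, unmapped and poorly mapped reads, and deposited raw counts per gene from Subread 1.6.2. The strand setting of the counting is not given in the sources used here, so reads of Prox1 and Dsp cannot be told from those of overlapping antisense genes. The deposited gene lengths are other values, summed exon lengths in bases. The labels give neither sex nor batch. The study's methods report both sexes in every group, mostly females in WT and zQ175:CK2α’(±) mice and mostly males in zQ175 and CK2α’(±) mice. The study reports that genotype and not sex drove its expression changes. The fits here hold no term for sex, and its part was not tested. Genotypes came from the labels, and p-values measure the spread between mice.

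From these counts, CPM after TMM scaling (log2 with a prior count of 2) and edgeR 4.0.16 quasi-likelihood tests (R 4.3.3) were computed on the 20914 genes kept by filterByExpr, in 1 fit of 18 libraries with genotype as the only term. A gene was called at a Benjamini-Hochberg adjusted p under 0.1 over all genes tested. Of 55421 identifiers, 55154 had a symbol, and 37580 genes had any count. Promoters came from RefSeq (GRCm38.p6), and Poisson intervals are exact at 95%. The test was checked on simulated counts with 200 known changes of 1 on the log2 scale. It recovered 91% of them, and 7.14% of its calls were false. The simulated libraries held no carried-over tissue, so this check does not bear on calls that rest on single libraries.

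The 7 genes and all lists were chosen with earlier results of these data known. The genes named were the 7, the 10 most like their mean z-score with and without the library of highest score, the closest to each, all dentate gyrus and Ammon's horn genes, and of other lists the called genes (at most 4) or else the 2 with the largest difference. Genes named outside this rule are marked in the text. The alternatives were DESeq2 1.42.0, edgeR with its size factors, all genes with a count, only the groups compared, a replicate block, an adjusted p under 0.05, CPM without TMM, a prior count of 0.5, Spearman's rho, and each library left out in turn. A fit without zQ175 replicates 1 and 5 was added after the values were seen.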

Additional observations from a re-analysis of the deposited data

Results flagged for a closer look

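Within each genotype of 5 libraries, a library was singled out where its gap to the nearest other exceeded 0.71 of the group's range, Dixon's 95% limit. Of 48 groups examined (7 marker genes and 9 list sums), 10 had such a library, where chance alone gives about 1 in 20, and 3 of the 10 were zQ175 replicate 5. That rate holds for groups not chosen on their values. It applies neither to the 21 groups of marker genes, which hold 4 of the 10, nor to the list sums, since genes and lists were chosen with results of these data known, so the gaps are a description.

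Among the marker genes, Fibcd1 was at 19.9 CPM in zQ175 replicate 5 with the nearest other at 5.68 CPM, a gap of 0.827 of the range. Tdo2 was at 1.24 CPM in the same library (nearest 0.188 CPM, gap 0.848), from 23 counts. In zQ175:CK2α’(±) replicate 2, Tdo2 was at 0.933 CPM (nearest 0.240 CPM, gap 0.742), from 13 counts, and Fibcd1 was low at 3.09 CPM (nearest 5.02 CPM, gap 0.762).

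Among the list sums, the pallial excitatory genes reached 521 CPM in zQ175 replicate 5 (nearest 150.0 CPM, gap 0.937), and the striatal projection genes were low in zQ175 replicate 1 at 1962 CPM (nearest 3374 CPM, gap 0.712). The choroid plexus sum was 3201 CPM in zQ175:CK2α’(±) replicate 2 (nearest 19.1 CPM, gap 0.998). The meningeal sum was high at 39.7 CPM in WT replicate 3 (nearest 22.8 CPM, gap 0.792), at 36.1 CPM in zQ175 replicate 1 (nearest 19.99 CPM, gap 0.881) and at 31.9 CPM in zQ175:CK2α’(±) replicate 2 (nearest 21.1 CPM, gap 0.714). Where these high values come from was not tested.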

How the results depend on the processing

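The number of marker genes highest in zQ175 replicate 5 was 6 with TMM, with library totals alone and with DESeq2's size factors, and the counts for the dentate gyrus (7), Ammon's horn (3) and pallial (10) lists also stayed. Of 360 alternative fold changes of the marker genes, 355 moved by less than 1 SD between replicates and 37 had the opposite sign. The 5 that moved more were Fibcd1 without zQ175 replicate 5 (-0.45 against WT and -0.27 against zQ175:CK2α’(±)), without replicates 1 and 5 (-0.43 and -0.25), and Spink8 in CK2α’(±) against WT without CK2α’(±) replicate 3 (-2.26). Of the 10 genes most like the marker score, 1 was shared with Spearman's rho, 9 with a prior count of 0.5 and 0 without the library of highest score.

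Genes called in zQ175 against WT numbered 230, and 51 at an adjusted p under 0.05, 223 with DESeq2's size factors, 451 with no filter on low counts, 855 with DESeq2 and 0 with only the 2 groups in edgeR (2337 at an unadjusted p under 0.05). Leaving out 1 library gave 0 to 587: 0 without zQ175 replicate 5 or WT replicate 3 (2367 unadjusted), 10 without WT replicate 1, 587 without WT replicate 2, 77 without zQ175 replicate 1 and 133 without zQ175 replicate 3. Without zQ175 replicates 1 and 5 the count was 0 (2113 unadjusted). In zQ175 against zQ175:CK2α’(±), with 3 called, there were 51 with no filter, 39 with DESeq2 and 1 to 6 leaving out 1 library (6 without zQ175 replicate 1, and 1 without zQ175 replicate 3, 4 or 5 or zQ175:CK2α’(±) replicate 3 or 4). In zQ175:CK2α’(±) against WT, with 3 called, there were 1 at 0.05, 85 with no filter, 123 with DESeq2, 1 with only the 2 groups, and 1 to 34 leaving out 1 library (34 without WT replicate 2, 33 without WT replicate 4, 5 without WT replicate 5, 2 without zQ175:CK2α’(±) replicate 3, and 1 without any other). In CK2α’(±) against WT, with 3 called, there were 19 with no filter, 11 with DESeq2, 0 with only the 2 groups in edgeR (730 unadjusted), and 1 to 9 leaving out 1 library (9 without WT replicate 2, 1 without any CK2α’(±) library). With the replicate block the 4 comparisons had 98, 1, 1 and 1 calls. The labels do not say that a number pairs mice, correlations of deviations over 24 same-numbered pairs ran from -0.14 to 0.12, and 1 of 18 libraries was closest to its own number. The cause of these changes was not tested. Depth limits Tdo2 and Spink8, which had at most 23 and 57 counts.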
